A study of Mus musculus with 8 samples.

Results

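Microglia are the resident immune cells of the brain, and the 9 genes described here either mark their identity or encode C1q, the recognition protein of the classical complement pathway. The genes were chosen by symbol. Cx3cr1, P2ry12, Tmem119, Csf1r, Trem2 and Aif1 represent microglial identity, and C1qa, C1qb and C1qc encode the 3 chains of C1q. All 9 were found among the 20802 genes measured. The hippocampus of 8 male C57BL/6 mice was sequenced after repeated anesthesia in late postnatal life, with 1 RNA library per mouse. The 4 mice of the Anesthesia group had been given ketamine, a blocker of NMDA-type glutamate receptors, at 35 mg per kg intraperitoneally on 5 consecutive days from postnatal day 16. The 4 mice of the Control group were given saline in the same way according to the treatment protocol, although their titles call them untreated. Both groups were labelled with an age of 28 days, whereas the methods place the tissue 1 week after the last injection, which fell on postnatal day 20. No transgene or other allele was named for either group.

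Microglia enter the brain early in embryonic life and depend on signalling through the receptor Csf1r for their survival. They sense neurons through the fractalkine receptor Cx3cr1, sense released nucleotides through P2ry12, and sense lipids and lipoproteins through Trem2. In the brain they are the main source of C1q, which tags synapses during postnatal development for removal by microglia.

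Values are given as normalized counts, the authors' gene-level estimates after scaling between libraries. An estimated 15500000 to 22100000 reads per library fell on the measured genes. Groups were compared with limma on log2(normalized count + 1), and a log2 difference above 0 means a higher level in the Anesthesia group. All 9 genes passed the minimum mean of 10 normalized counts, as did 18865 genes in all. In limma, 0 of the 9 passed an adjusted p of 0.05, beside 0 of the 18865 genes tested (0%), and 0 of the 9 had an unadjusted p under 0.05, beside 1513 genes (8.02%). The latter were 897 genes higher (4.75%) and 616 genes lower (3.27%) in the Anesthesia group. The adjusted p from limma lay between 0.639 and 0.951 over the 9 genes. Of the 9, 6 had a log2 difference above 0 and 3 below, with a median of 0.04 beside -0.004 over all genes tested. That median was 0.016 when GC content and transcript length were corrected for. P2ry12 was the only one of the 9 whose groups did not overlap, a pattern seen in 5.04% of all genes tested.

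**Figure D1:**
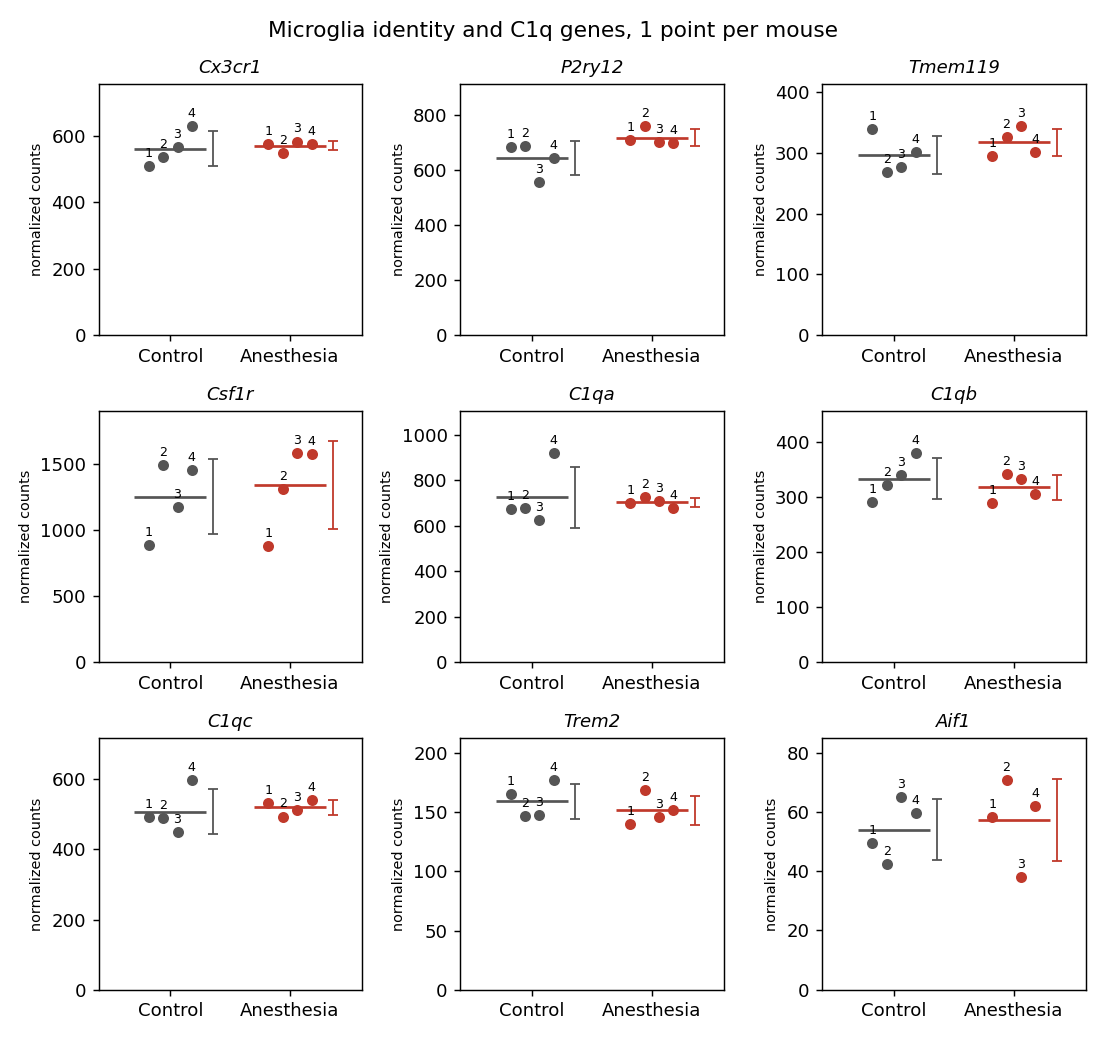
Normalized counts (vertical axis, from 0) of the 9 genes in each mouse of the Control (grey) and Anesthesia (red) groups, with the mouse number at each point, a line at the mean and a bar of 1 SD. P2ry12 was between 698.2 and 761.0 in Anesthesia mice and between 557.3 and 687.7 in Control mice, while the groups overlapped for the other 8 genes.

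Levels were compared between genes per kilobase of the longest protein-coding transcript of each. On this scale C1qa was highest, with a mean over the 8 mice of 686.8 normalized counts per kb and a range of 601.5 to 886.1. C1qc followed at 427.2 (373.7 to 497.5), with no overlap with C1qa. C1qb, P2ry12 and Csf1r came next with means of 298.7, 290.2 and 275.5 normalized counts per kb, and their ranges over the mice overlapped. Trem2, Tmem119 and Cx3cr1 also overlapped, with means of 142.8, 136.6 and 126.0 normalized counts per kb. Aif1, which encodes the calcium-binding protein Iba1, was lowest at 63.6 normalized counts per kb (43.3 to 80.9), and no mouse reached the lowest value of another of the 9 genes.

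Cx3cr1 (ENSMUSG00000052336, chr9:119901616-120069879, GRCm38, minus strand) encodes the receptor for fractalkine. Its level was 574.7, 549.7, 583.2 and 575.5 normalized counts in Anesthesia mice 1 to 4, and 510.1, 536.9, 567.5 and 631.1 in Control mice 1 to 4. The Anesthesia mice lay close together and inside the range of the Control mice, where the lowest and the highest values of all 8 were found. The means were 570.8 ± 14.6 and 561.4 ± 52.1 normalized counts (SD, n = 4 each). The log2 difference was 0.028 (SE 0.08, 95% interval -0.15 to 0.20, adjusted p = 0.935 in limma). Cx3cl1, the fractalkine ligand made mainly by neurons, was at 5275, 5856, 7214 and 5525 normalized counts in the Anesthesia mice and 4567, 5570, 4537 and 5562 in the Control mice. Anesthesia mouse 3 was highest for the ligand, Control mice 1 and 3 were lowest, and the groups overlapped. The log2 difference of Cx3cl1 was 0.23 (SE 0.11, 95% interval -0.003 to 0.47, adjusted p = 0.625 in limma).

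P2ry12 (ENSMUSG00000036353, chr3:59216272-59262871, minus strand) encodes a receptor for ADP that steers microglial processes. It measured 709.2, 761.0, 702.4 and 698.2 normalized counts in the Anesthesia mice and 683.1, 687.7, 557.3 and 643.7 in the Control mice. All 4 Anesthesia mice were above all 4 Control mice, by a narrow margin between Anesthesia mouse 4 and Control mouse 2, and Control mouse 3 was lowest. The group means were 717.7 ± 29.2 and 642.9 ± 60.4 normalized counts (SD, n = 4 each). The log2 difference of 0.16 (SE 0.08, 95% interval -0.018 to 0.34) did not pass the test (adjusted p = 0.639 in limma), and it was 0.096 without Control mouse 3. With the mean log2 level of choroid plexus genes as a covariate it was 0.12 (adjusted p = 0.979 in limma). In bulk tissue, fewer cells of a type and less RNA per cell cannot be told apart, for this gene as for the other 8. Entpd1, which encodes the enzyme that breaks down extracellular ATP and ADP, ranged from 169.7 to 367.9 normalized counts, with a log2 difference of -0.004 (SE 0.24, adjusted p = 0.997 in limma). Kcnk13, the gene of the potassium channel THIK-1 of microglia, ranged from 71.9 to 127.8 normalized counts, with a log2 difference of -0.15 (SE 0.17, adjusted p = 0.816 in limma), and of -0.017 without Control mouse 3.

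Csf1r (ENSMUSG00000024621, chr18:61100598-61132149, plus strand) encodes the receptor for the growth factors Csf1 and IL-34. It stood at 876.5, 1313, 1584 and 1576 normalized counts in Anesthesia mice 1 to 4 and at 886.8, 1494, 1175 and 1453 in Control mice 1 to 4. Mouse 1 of each group was far below the others, and the groups overlapped over nearly their whole range. The means were 1337 ± 332.2 and 1252 ± 281.9 normalized counts (SD, n = 4 each), and the log2 difference was 0.086 (SE 0.21, 95% interval -0.37 to 0.54, adjusted p = 0.922 in limma). It was below 0 when Anesthesia mouse 3, Anesthesia mouse 4 or Control mouse 1 was left out, each time in a fit of the other 7 mice, with a lowest value of -0.07, and 0.016 when GC content and transcript length were corrected for.

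The spread of Csf1r over the mice was wide for its level. Its coefficient of variation was 22.3%, beside 2.77% for counting error alone at the estimated depth. The SD of its log2 level was 0.35, beside a median of 0.143 over 12249 genes whose mean was 100 normalized counts or more, of which 759 (6.2%) had a larger SD. When GC content and transcript length were corrected for, the SD was 0.322. The annotated exons of Csf1r share 873 of their 5774 bases with Hmgxb3, a gene on the opposite strand that is named here for its position. The library kit is given differently in the labels and the methods, and the strand setting of the quantification is not given in the sources used here, so the value of Csf1r is uncertain where the exons overlap. Hmgxb3 itself was at 1114, 1352, 1211 and 1172 normalized counts in the Anesthesia mice and at 1219, 1190, 1157 and 1163 in the Control mice. Its lowest value was in Anesthesia mouse 1, where Csf1r was also lowest, and in Control mouse 1 it was below Anesthesia mouse 2 alone. The part of the overlap in the spread of Csf1r was not tested. P2ry12 shares 9 exon bases with Med12l and Cx3cr1 shares 78 with an antisense transcript, whereas the other 6 genes share none with another annotated gene.

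The ligands of Csf1r did not stand apart between the groups. Csf1 ranged from 245.7 to 344.9 normalized counts over the 8 mice, with a log2 difference of -0.041 (SE 0.13, adjusted p = 0.941 in limma). Il34, made by neurons, ranged from 291.4 to 387.5 normalized counts, with a log2 difference of 0.084 (SE 0.11, adjusted p = 0.838 in limma). For both ligands the groups overlapped. Per kilobase, Il34 (162.2 to 215.7 normalized counts per kb) was above Csf1 (58.8 to 82.6) in every mouse.

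Tmem119 (ENSMUSG00000054675, chr5:113793729-113800516, minus strand) encodes a membrane protein used to separate microglia from other macrophages. Its level was 295.0, 326.2, 344.4 and 301.6 normalized counts in Anesthesia mice 1 to 4 and 338.3, 268.2, 276.3 and 300.5 in Control mice 1 to 4. Control mouse 1 was among the highest and Control mice 2 and 3 were lowest, so the groups overlapped. The means were 316.8 ± 22.8 and 295.8 ± 31.5 normalized counts (SD, n = 4 each), with a log2 difference of 0.10 (SE 0.10, 95% interval -0.12 to 0.32, adjusted p = 0.787 in limma). Tgfb1, whose product maintains microglial identity, was close to the minimum mean, at 9.38 to 18.5 normalized counts. Its log2 difference was 0.067 (SE 0.30, adjusted p = 0.958 in limma), and 0.26 with the choroid plexus covariate. Nrros, which encodes a protein that presents TGF-beta 1 on microglia, ranged from 86.3 to 156.8 normalized counts, with a log2 difference of -0.09 (SE 0.20, adjusted p = 0.913 in limma).

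Aif1 (ENSMUSG00000024397, chr17:35170991-35176068, minus strand) was measured at 58.3, 70.8, 37.9 and 61.9 normalized counts in the Anesthesia mice and 49.4, 42.3, 65.0 and 59.5 in the Control mice. Both the highest and the lowest of the 8 values were in the Anesthesia group, in mice 2 and 3. The means were 57.2 ± 13.9 and 54.0 ± 10.2 normalized counts (SD, n = 4 each), and the log2 difference was 0.065 (SE 0.22, 95% interval -0.43 to 0.56, adjusted p = 0.946 in limma). With a coefficient of variation of 20.5% over the mice and 13.4% from counting error alone, Aif1 was the least precisely counted of the 9 genes.

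Trem2 (ENSMUSG00000023992, chr17:48346401-48354147, plus strand) encodes a lipid-sensing receptor that signals through the adaptor Tyrobp. Trem2 was at 139.7, 168.7, 145.6 and 151.9 normalized counts in the Anesthesia mice and 165.0, 147.1, 147.6 and 177.3 in the Control mice. Control mouse 4 was highest and Anesthesia mouse 1 lowest, with overlap between the groups. The means were 151.5 ± 12.5 and 159.2 ± 14.6 normalized counts (SD, n = 4 each), and the log2 difference was -0.071 (SE 0.11, 95% interval -0.32 to 0.18, adjusted p = 0.872 in limma). The coefficient of variation over the mice, 8.54%, was close to the 8.01% of counting error alone.

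Tyrobp was at 156.3, 154.4, 159.1 and 176.9 normalized counts in the Anesthesia mice and 160.2, 156.4, 153.6 and 195.8 in the Control mice. As for Trem2, Control mouse 4 was highest, and the log2 difference was -0.037 (SE 0.11, adjusted p = 0.94 in limma). Syk, the kinase recruited by Tyrobp, ranged from 65.8 to 103.5 normalized counts (log2 difference 0.23, SE 0.17, adjusted p = 0.729 in limma). Plcg2, a phospholipase downstream of Syk, ranged from 101.6 to 150.2 normalized counts (log2 difference -0.15, SE 0.14, adjusted p = 0.779 in limma). Inpp5d encodes SHIP1, a phosphatase that dampens this signalling, and it varied from 143.4 to 393.5 normalized counts, with Control mouse 4 and Anesthesia mouse 2 far above the other mice. Its log2 difference was -0.018 (SE 0.30, adjusted p = 0.99 in limma). Apoe, a lipoprotein ligand of Trem2 made largely by astrocytes, was at 18498 ± 345.5 normalized counts in Anesthesia mice and 19408 ± 917.1 in Control mice (SD, n = 4 each), with a log2 difference of -0.068 (SE 0.05, adjusted p = 0.726 in limma). Of the 12 ligands and signalling partners of the 9 genes, 4 had a log2 difference above 0 and 8 below (median -0.028), and 0 had an unadjusted p under 0.05.

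**Figure D2:**
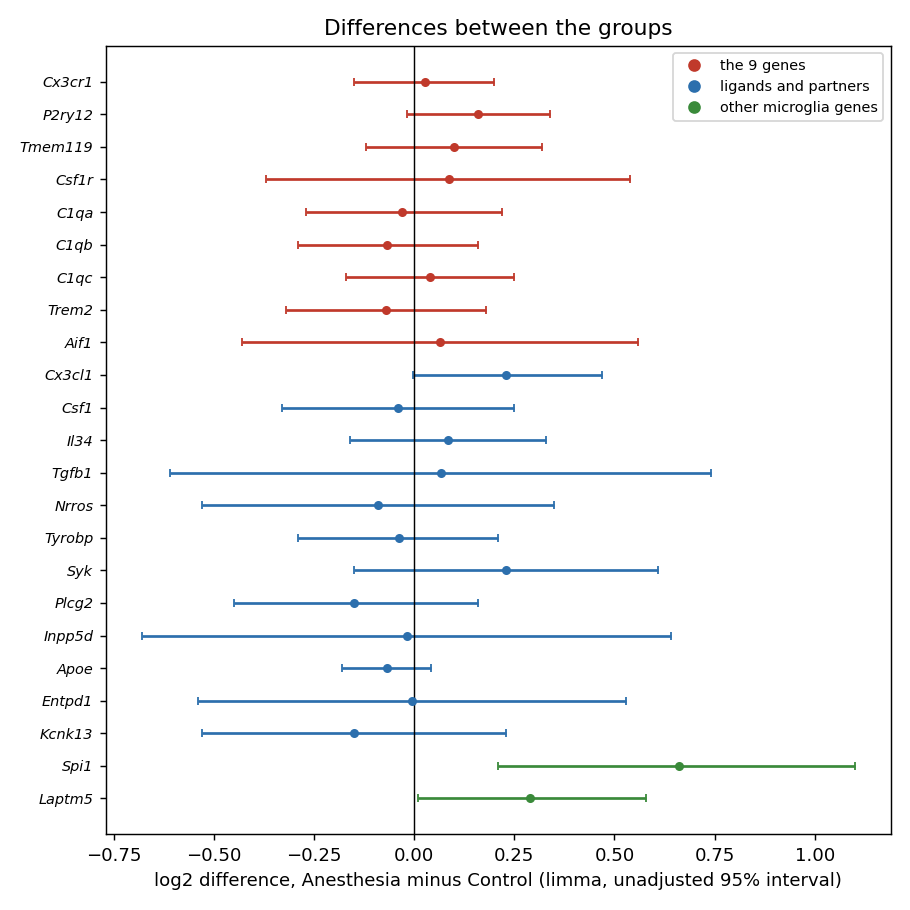
Log2 difference between the Anesthesia and Control groups (horizontal axis) with its unadjusted 95% interval from limma for the 9 genes (red), their 12 ligands and partners (blue) and the microglia genes Spi1 and Laptm5 (green). The intervals of all 9 genes and of the 12 partners include 0. Spi1 and Laptm5 were picked from 28 other microglia identity genes for an unadjusted p under 0.05. Their intervals leave out 0 by that choice, so the contrast with the other genes shows nothing. Of the 28, 18 had a log2 difference above 0 and 10 below. Neither Spi1 nor Laptm5 passed the test after adjustment, and the interval of Laptm5 starts at 0.009.

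The C1q genes lie side by side on the minus strand of chromosome 4, with C1qb (ENSMUSG00000036905) at chr4:136880129-136886187, C1qc (ENSMUSG00000036896) at chr4:136889804-136893065 and C1qa (ENSMUSG00000036887) at chr4:136895917-136898803. Each encodes 1 of the chains that form the C1q molecule. C1qa was at 700.5, 725.9, 708.7 and 677.3 normalized counts in the Anesthesia mice and 675.7, 679.3, 625.6 and 921.5 in the Control mice. Control mouse 4 was far above the other 7 and Control mouse 3 was lowest. The means were 703.1 ± 20.2 and 725.5 ± 132.9 normalized counts (SD, n = 4 each), with a log2 difference of -0.029 (SE 0.11, 95% interval -0.27 to 0.22, adjusted p = 0.951 in limma). Without Control mouse 4 the log2 difference was 0.091.

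C1qb was at 289.6, 340.7, 331.6 and 306.0 normalized counts in the Anesthesia mice and 290.6, 321.7, 339.9 and 379.9 in the Control mice. Control mouse 4 was again highest, mouse 1 of each group was lowest, and the groups overlapped. The means were 317.0 ± 23.4 and 333.0 ± 37.3 normalized counts (SD, n = 4 each), with a log2 difference of -0.067 (SE 0.10, 95% interval -0.29 to 0.16, adjusted p = 0.862 in limma). C1qc was at 533.1, 494.1, 511.6 and 540.5 normalized counts in the Anesthesia mice and 493.9, 490.4, 449.5 and 598.5 in the Control mice. Here too Control mouse 4 was highest and Control mouse 3 lowest. The means of C1qc were 519.9 ± 21.1 and 508.1 ± 63.6 normalized counts (SD, n = 4 each), with a log2 difference of 0.04 (SE 0.09, 95% interval -0.17 to 0.25, adjusted p = 0.918 in limma).

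Summed over the 3 genes, C1q stood at 1523, 1561, 1552 and 1524 normalized counts in the Anesthesia mice and 1460, 1491, 1415 and 1900 in the Control mice. The Anesthesia mice were within a narrow band, above Control mice 1 to 3 and below Control mouse 4. The means of the sum were 1540 ± 19.3 and 1567 ± 224.4 normalized counts (SD, n = 4 each). Per kilobase, C1qa was 1.93 to 2.54 times C1qb over the 8 mice, with a mean ratio of 2.33 ± 0.141 in Anesthesia mice and 2.28 ± 0.271 in Control mice (SD, n = 4 each). The per-kilobase ratio of C1qa to C1qc was 1.45 to 1.78 and varied least, with a coefficient of variation of 6.31%. The ratio of C1qc to C1qb was 1.2 to 1.67, with a coefficient of variation of 10.7%, and in each of these ratios the groups overlapped.

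Over the 8 mice, C1qa and C1qc had a Pearson r of 0.84 on the log2 scale (exact permutation p = 0.0121, Benjamini-Hochberg adjusted p = 0.434 over the 36 pairs of the 9 genes, two-sided). Spearman's rho was 0.62 (exact permutation p = 0.115, adjusted p = 0.929). Without Control mice 3 and 4, the farthest from the median of C1qa, r was -0.11. Leaving out the farthest mice narrows the range and can lower r by itself, so this value does not decide what the relation rested on. Without Control mouse 4 alone r was 0.61, the lowest value with any single mouse left out. C1qa and C1qb had an r of 0.64 (exact permutation p = 0.0904, adjusted p = 0.542) and a rho of 0.50 (exact permutation p = 0.216, adjusted p = 0.929). Their r was 0.62 without Control mice 3 and 4 and -0.06 without Control mouse 4 alone. For C1qb and C1qc, r was 0.25 (exact permutation p = 0.563, adjusted p = 0.896) and rho 0.05 (exact permutation p = 0.935, adjusted p = 1.0), and r was -0.45 without Anesthesia mouse 1 and Control mouse 4.

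Over all 36 pairs, the median r was 0.18, with a range of -0.32 to 0.84, and r was above 0 in 28 pairs and below in 8. Only C1qa with C1qc had an unadjusted exact permutation p under 0.05 for r, and no pair had one after adjustment. By rank, only Cx3cr1 with C1qc did, with a rho of 0.76 (exact permutation p = 0.0368, adjusted p = 0.929). The r of Cx3cr1 with C1qc was 0.68 (exact permutation p = 0.0675, adjusted p = 0.542), and 0.39 without Control mice 1 and 4, the farthest from the median of Cx3cr1.

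Read by mouse, the mean log2 deviation of the 9 genes from their means over all mice was -0.074, 0.091, 0.003 and 0.05 in Anesthesia mice 1 to 4. It was -0.092, -0.063, -0.072 and 0.157 in Control mice 1 to 4. Without Csf1r, the mean over the other 8 genes was -0.017, 0.096, -0.038 and 0.016 in the Anesthesia mice and -0.04, -0.101, -0.068 and 0.151 in the Control mice, so that Control mouse 2 and not Control mouse 1 was lowest. Control mouse 4 was highest in both means and highest of all mice for 5 of the 9 genes, namely Cx3cr1, C1qa, C1qb, C1qc and Trem2. Anesthesia mouse 2 was highest for P2ry12 and Aif1, and Anesthesia mouse 3 for Tmem119 and Csf1r. Anesthesia mouse 1 and Control mouse 3 were each lowest for 3 genes.

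**Figure D3:**
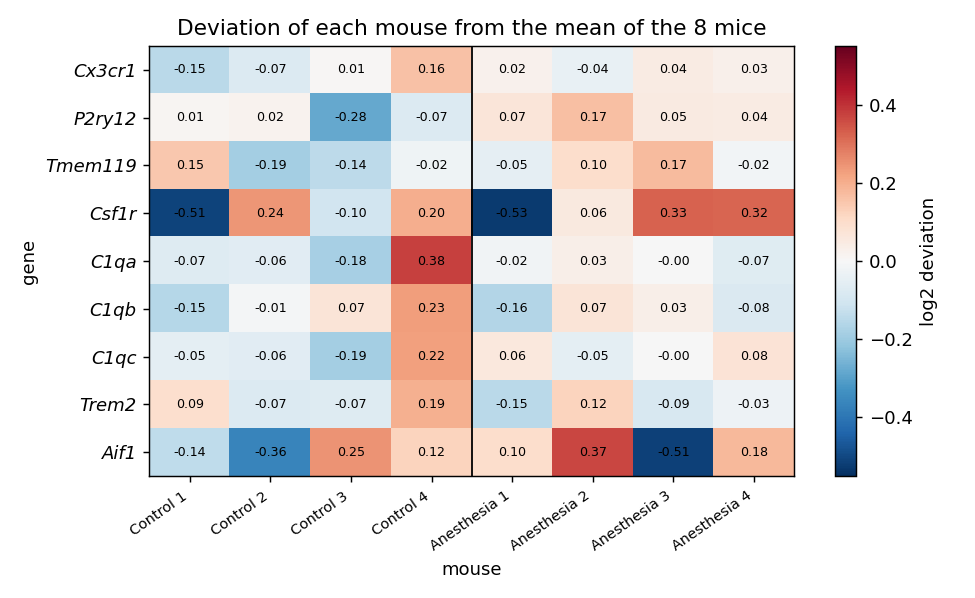
Log2 deviation (colour and printed value) of each mouse (columns) from the mean of the 8 mice for each of the 9 genes (lines), with the Control group left of the black line. Csf1r reached -0.51 in Control mouse 1 and -0.53 in Anesthesia mouse 1, and C1qa reached 0.38 in Control mouse 4.

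The genes whose standardised level over the 8 mice lay nearest to the mean of the 9 genes, among 12127 genes outside the gene lists whose mean was 100 normalized counts or more, were Nudcd2 (root mean square difference 0.28), Rad51d (0.34), Mast3 (0.35), Chd9 (0.35) and Washc2 (0.37). After correction for GC content and transcript length, Nudcd2 was the only one still among the 5 nearest.

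Of 28 other microglia identity genes, 18 had a log2 difference above 0 and 10 below (median 0.033). Of the 28, 3 had an unadjusted p under 0.05, all higher in the Anesthesia group, and 0 passed after adjustment in limma. Over all genes tested, 8.02% had an unadjusted p under 0.05, with 4.75% on the higher side. The groups did not overlap for 2 of the 28, both higher, a pattern seen in 5.04% of all genes tested. Spi1, which encodes the transcription factor PU.1 that microglia need to develop, was at 40.4, 45.4, 34.5 and 35.0 normalized counts in the Anesthesia mice and 23.0, 19.9, 25.8 and 28.5 in the Control mice. The 4 Anesthesia mice were above the 4 Control mice, with a log2 difference of 0.66 (SE 0.20, 95% interval 0.21 to 1.1, adjusted p = 0.611 in limma). Laptm5, a lysosomal membrane protein gene, was at 157.5 ± 18 and 128.4 ± 14.5 normalized counts (SD, n = 4 each) with overlap between the groups (log2 difference 0.29, SE 0.13, adjusted p = 0.622 in limma). Its unadjusted p in limma was 0.0442, but 0.0667 after correction for GC content and transcript length and 0.093 with the choroid plexus covariate.

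The rest of the complement system was read beside C1q. Of 13 listed proteases and other components, 9 were in the table and 8 were tested, 3 higher and 5 lower in the Anesthesia group (median log2 difference -0.121), with 0 at an unadjusted p under 0.05. C4b, the substrate cleaved after C1q binds, was at 394.6, 506.5, 501.3 and 526.9 normalized counts in the Anesthesia mice and 569.8, 468.7, 520.3 and 746.0 in the Control mice. As for C1q, Control mouse 4 was highest, and the log2 difference was -0.24 (SE 0.14, adjusted p = 0.673 in limma), and -0.11 without that mouse. C4b has a near-identical copy in the genome, so its value is uncertain. C2, the protease partner of C4, was at 21.9 ± 8.0 and 35.9 ± 11.4 normalized counts (SD, n = 4 each), with a log2 difference of -0.72 (SE 0.34, adjusted p = 0.636 in limma), and of -0.42 without Anesthesia mouse 2.

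Among 6 tested complement receptor genes, 5 were higher and 1 lower (median 0.125), with 1 at an unadjusted p under 0.05, beside 8.02% of all genes tested. This was Lrp1, a large endocytic receptor made by many brain cells, at 13567 ± 909.1 and 10911 ± 869.0 normalized counts (SD, n = 4 each) without overlap. Its log2 difference was 0.32 (SE 0.07, adjusted p = 0.565 in limma), and 0.085 after correction for GC content and transcript length (adjusted p = 0.786 in limma). Among 15 complement regulator genes, 8 were higher and 7 lower (median 0.015), with 1 at an unadjusted p under 0.05, again beside 8.02%. Csmd2, which encodes a neuronal membrane protein with complement-control domains, was at 1450 ± 178.1 and 1105 ± 91.5 normalized counts (SD, n = 4 each) without overlap (log2 difference 0.39, SE 0.10, adjusted p = 0.565 in limma), and its log2 difference was 0.19 after the same correction. Groups without overlap, as for Lrp1 and Csmd2, were seen in 5.04% of all genes tested. Clu, the regulator with the most counts, had a log2 difference of -0.13 (SE 0.06, adjusted p = 0.634 in limma), and of -0.062 with the choroid plexus covariate.

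Of 21 listed genes that reactive microglia raise, 16 were in the table and 13 were tested, 4 higher and 9 lower (median -0.085). Of the 13, Lilrb4a was the only one with an unadjusted p under 0.05, beside 8.02% of all genes tested. Lilrb4a, an inhibitory receptor gene with a close relative in the genome whose reads may be shared, was at 6.75, 8.22, 9.95 and 9.61 normalized counts in the Anesthesia mice and 20.4, 13.7, 21.4 and 15.7 in the Control mice. The groups did not overlap, with a log2 difference of -0.96 (SE 0.28, adjusted p = 0.595 in limma). All 4 Anesthesia values were under 10, so the gene passed the minimum mean only through the Control group, and its lack of overlap is no support for a difference. Ctsd, the lysosomal protease gene with the most counts in the list, had a log2 difference of -0.21 (SE 0.10, adjusted p = 0.636 in limma), and of -0.065 with the choroid plexus covariate.

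Other cell types that carry some of these genes were read as summed markers. Border-associated macrophages, which also make C1q and Csf1r, had 9 of 9 markers in the table and none at 0, with a sum of 691.0, 929.5, 804.7 and 560.4 normalized counts in the Anesthesia mice and 977.0, 556.8, 560.5 and 1187 in the Control mice. Control mouse 4 was highest for this sum, which overlapped between the groups, and Stab1 had the most counts. Of 13 markers of monocytes, neutrophils and lymphocytes only Ccr2 and S100a9 were in the table, both under the minimum mean, and their sum was 4.41 to 13.4 normalized counts in Anesthesia mice and 14.6 to 47.6 in Control mice, again highest in Control mouse 4. The part of these cells in the high C1q of Control mouse 4 was not tested.

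Choroid plexus, a tissue that lies against the hippocampus, differed more between libraries, by highest over lowest sum, than any other of the 17 lists. All 12 of its markers were in the table, none was at 0, Ttr had the most counts, and all 12 were lower in the Anesthesia group (median log2 difference -1.95) with 0 at an unadjusted p under 0.05. Their sum was 86999, 4965, 4599 and 9985 normalized counts in the Anesthesia mice and 4379, 46006, 103925 and 101501 in the Control mice. Anesthesia mouse 1 and Control mice 2, 3 and 4 were thus high, 1 mouse against 3, and a comparison among the high or the low libraries alone would leave 1 mouse in a group. With the mean log2 level of these markers as a covariate, the median log2 difference of the 9 genes was 0.044 and 0 of the 9 passed an adjusted p of 0.05 in limma. Single genes moved more than this median. The log2 difference with the covariate was 0.013 in place of 0.10 for Tmem119, 0.044 in place of 0.086 for Csf1r and -0.005 in place of -0.029 for C1qa. It was 0.19 in place of 0.065 for Aif1, 0.074 in place of 0.028 for Cx3cr1, 0.067 in place of 0.04 for C1qc and -0.11 in place of -0.071 for Trem2. All 12 hippocampal neuron markers were in the table and none was at 0, with Snap25 highest in counts. Their sum was 36337 ± 1123 normalized counts in Anesthesia mice and 33964 ± 1495 in Control mice (SD, n = 4 each), with overlap. Of the 12, 5 were higher and 7 lower (median log2 difference -0.031). Of these, 2 had an unadjusted p under 0.05, both higher, beside 8.02% of all genes tested, and 0 passed after adjustment in limma. The groups did not overlap for 2 of the 12, both higher, a pattern seen in 5.04% of all genes tested.

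The promoters of the 9 genes were searched for the letters bound by PU.1, the factor that Spi1 encodes. A RefSeq promoter (GRCm38.p6) was found for 6 of the 9, and the 250 bases before the transcript start were read on both strands. The PU.1 core GAGGAAG was present in 2 of the 6, C1qc and Trem2, and in 3486 of 32851 promoters of the same length (10.6%). A match is a description of the letters and was not tested as a binding site. The upstream bases of Trem2 are shown as an example with a match and those of C1qb as one without, each 5′ to 3′ on the strand of its gene. Trem2 is read at chr17:48346151-48346400 on the plus strand, with the reverse complement of the PU.1 core in capitals, and C1qb at chr4:136886201-136886450 on the minus strand.
Trem2: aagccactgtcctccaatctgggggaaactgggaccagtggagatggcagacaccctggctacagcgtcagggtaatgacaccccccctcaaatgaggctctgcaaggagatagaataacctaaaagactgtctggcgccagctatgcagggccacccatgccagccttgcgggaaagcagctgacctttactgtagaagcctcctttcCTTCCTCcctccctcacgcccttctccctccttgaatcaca
C1qb: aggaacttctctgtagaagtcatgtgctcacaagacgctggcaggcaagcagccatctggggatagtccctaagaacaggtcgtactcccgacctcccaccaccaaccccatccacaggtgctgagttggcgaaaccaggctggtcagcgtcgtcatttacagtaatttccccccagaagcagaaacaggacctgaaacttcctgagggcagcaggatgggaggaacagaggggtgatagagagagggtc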

How the data were processed

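The authors quantified reads with Salmon 1.1.0 on GRCm38, summed transcripts per gene with tximport and deposited a signal, counts normalized with DESeq2 1.30.1, in 1 column per mouse. Columns were matched to mice by group letter and number, and 0 columns were left over. Whole reads could not be recovered, since 50.5% to 73.1% of low values lay within 0.1 of a whole read, so no count model was run. The depth estimate rested on the spacing of low values (0.851 to 1.213 normalized counts per read).

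Gene names, positions, lengths and exon overlaps came from GENCODE M21, which named 20784 of 20802 identifiers. Log2(value + 1) was compared between groups with limma 3.58.1 in R 4.3.3, with a mean-variance trend and no covariate, for 18865 genes whose mean was 10 or more (1937 were below). Benjamini-Hochberg adjustment ran over all genes tested, at a threshold of 0.05. Intervals of 95% are unadjusted. Fold changes on this scale understate the change of low genes. Counting error was taken as Poisson error at the estimated depth. Correlations used exact permutation over 40320 pairings of the 8 mice. Scripts ran in Python 3.11.15 with pandas 2.3.3, scipy 1.17.1 and matplotlib 3.10.9, and the limma fit was tested on simulated data. Log2 ratios between libraries had an SD of 0.45 to 0.672, so no library was a repeat of another.

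The members and the 17 gene lists were chosen with earlier results of these data known. Named are the 9 genes, their 12 ligands and partners, in each other list the gene with the most counts, that with the smallest p and any with an unadjusted p under 0.05, and the 5 genes of nearest profile. For cell type markers outside microglia, only the gene with the most counts is named, apart from Ccr2. Their values are given as sums, counts of genes and median log2 differences. Certain genes covered by this rule are left out here. Alternatives were a pseudocount of 0.1, no filter, at least 10 in every library, upper quartile scaling, equal totals, the replicate number as a block, a correction for GC content and transcript length with and without that block, a choroid plexus covariate and each mouse left out. Removal of group means, and of the means of the 4 libraries with most and the 4 with least Ttr, was added to the correlations after the data were seen.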

Additional observations from a re-analysis of the deposited data

Results flagged for a closer look

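Within groups of 4 mice, 9 of 102 sets of values held a mouse whose gap to the nearest other mouse exceeded 0.829 of the range of the group, where chance gives about 1 in 20 groups, or 5.1. In Control mouse 4, the sum of C1qa, C1qb and C1qc was 1900 normalized counts (1415 to 1491 in the other Control mice). Tyrobp was 195.8 (153.6 to 160.2), and Inpp5d was 393.5 (168.5 to 204.7). The sum of the monocyte, neutrophil and lymphocyte markers was 47.6 (14.6 to 19.9) in this mouse, and the part of one in the other was not tested. In the Anesthesia group, the choroid plexus sum was 86999 in mouse 1 (4599 to 9985) and Kcnk13 was 71.9 in mouse 1 (91.3 to 95.3). Syk was 77.3 in mouse 2 (99.5 to 103.5). Entpd1 was 311.1 in mouse 3 (193.1 to 207.4), and the sum of the complement regulators was 32741 in mouse 3 (29864 to 30314).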

How the results depend on the processing

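Alternatives were run for 33 genes, namely the 9, their partners and those named from the microglia, complement, interferon and proliferation lists, and none had an adjusted p under 0.05 in limma (lowest 0.265, and 0.534 for the 9 genes). Over 9 settings that kept all mice, the 9 genes kept their signs, and 8 of 295 values of these genes changed sign. These were Tgfb1 at -0.001, Entpd1 at 0.022 and Mki67 at -0.079 after correction for GC content and transcript length, each the same with the replicate block added, Mki67 at -0.10 with the choroid plexus covariate, and Entpd1 at 0.006 with upper quartile scaling. The cause was not tested. Tgfb1 and Lilrb4a have no value with at least 10 in every library, since both were lower in some. Partner values also moved in size with the same sign. After correction for GC content and transcript length, Csf1 was -0.096, Syk 0.14, Inpp5d -0.083 and Tyrobp -0.009. With the choroid plexus covariate, Csf1 was -0.072, Nrros -0.15, Inpp5d -0.04, Tyrobp -0.02 and Entpd1 -0.055. Genes with an unadjusted p under 0.05 were 1513, against 873 with that correction and the replicate block and 821 with the covariate. Over all genes tested, same-numbered mice did not deviate together (correlations -0.242, -0.109, -0.182 and 0.019). Csf1r was low in mouse 1 of both groups (log2 deviation -0.527 in Anesthesia, -0.511 in Control). Its unadjusted p in limma was 0.439 with the replicate block and 0.686 without. The replicate block alone gave 0 genes called, 1084 with an unadjusted p under 0.05, a median of 0.04 for the 9 genes and an unadjusted p of 0.0506 for Laptm5. With the correction for GC content and length, with or without the replicate block, that median was 0.016, with Csf1r at 0.016, Cx3cr1 at 0.013, Tmem119 at 0.06 and C1qa at -0.014. Leaving out each mouse gave 0 to 2 genes called (2 without Control mouse 1), 1061 to 2024 with an unadjusted p under 0.05, a median of the 9 genes of -0.016 to 0.111 and a median r of 0.10 to 0.25. Log2 differences then changed sign for Cx3cr1 (-0.016 to 0.086, below 0 without Control mouse 1), Csf1r (-0.07 to 0.28), C1qa (-0.095 to 0.091), C1qc (-0.016 to 0.12, below 0 without Control mouse 3), Aif1 (-0.047 to 0.25, below 0 without Anesthesia mouse 2 or Control mouse 2), Csf1 (-0.13 to 0.033), Tgfb1 (-0.052 to 0.25), Nrros (-0.28 to 0.013), Tyrobp (-0.081 to 0.043), Inpp5d (-0.23 to 0.24), Entpd1 (-0.17 to 0.24) and Mki67 (-0.065 to 0.14). Of the 9 genes, P2ry12, Tmem119, C1qb and Trem2 kept their sign but not their size. P2ry12 was 0.096 without Control mouse 3 (0.16 with all mice) and Tmem119 0.057 without Control mouse 2 (0.10). Without Control mouse 4, C1qb was -0.002 (-0.067) and Trem2 -0.018 (-0.071). Other fits lay farther from 0, with Tmem119 at 0.17 and C1qb at -0.13 without Control mouse 1. Trem2 was -0.12 without Anesthesia mouse 2. Among the other genes that kept their sign, Cx3cl1 was 0.14 (0.23) and Plcg2 -0.072 (-0.15) without Anesthesia mouse 3. Without Control mouse 3, Apoe was -0.044 (-0.068), Il34 0.018 (0.084) and Syk 0.13 (0.23). Farther from 0, Il34 was 0.17 without Anesthesia mouse 2, Plcg2 -0.24 without Control mouse 2 and Kcnk13 -0.23 without Control mouse 1. Kcnk13, C4b, C2 and Oasl2 otherwise moved as given beside their values. Among the 9 genes, counting error was largest for Aif1 (13.4%). It was larger still for Tgfb1 (27.9%), Lilrb4a (27.6%), C2 (18.5%), Spi1 (17.8%), Oasl2 (16.9%) and Pclaf (14.1%). With 4 mice a group, the 95% interval of the fold change of P2ry12 was 0.988 to 1.27 and that of Csf1r 0.772 to 1.46. The median r was 0.23 with group means removed and 0.26 with the means of the libraries with most and least Ttr removed. By equal totals the profile of Washc2 lay at 0.39, and after correction for GC content and length those of Rad51d, Mast3, Chd9 and Washc2 lay at 0.44, 0.99, 0.74 and 0.45.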

Other observations

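The interferon response and proliferation lists stand outside the comparisons above. Of 13 interferon response genes, 11 were tested, 4 higher and 7 lower in the Anesthesia group (median log2 difference -0.087), with 0 at an unadjusted p under 0.05. Oasl2 had a log2 difference of -0.49 (SE 0.34, adjusted p = 0.716 in limma), and of -0.17 without Anesthesia mouse 4. Of 6 proliferation genes, 5 were higher and 1 lower (median 0.016). The lower gene was the 1 with an unadjusted p under 0.05, beside 8.02% of all genes tested. This was Pclaf, a partner of the replication clamp PCNA, which was at 25.8, 57.5, 30.6 and 36.5 normalized counts in the Anesthesia mice and 61.1, 47.2, 63.6 and 82.7 in the Control mice. Anesthesia mouse 2 was inside the range of the Control mice, and the log2 difference was -0.78 (SE 0.26, adjusted p = 0.62 in limma). Mki67 had a log2 difference of 0.014 (SE 0.15, adjusted p = 0.985 in limma), with the other sign after correction for GC content and transcript length and with the choroid plexus covariate.

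Summed red blood cell markers, 6 of 6 in the table and none at 0, were 5068 to 6916 normalized counts in the Anesthesia group and 5359 to 8436 in the Control group, with Hbb-bs highest in counts and all 5 tested genes lower in the Anesthesia group (median log2 difference -0.225). Astrocyte markers, 10 of 10 in the table with Slc1a2 highest in counts, summed to 110943 to 126446 over the 8 mice. Of the 10, 3 were higher and 7 lower in the Anesthesia group (median log2 difference -0.071). An unadjusted p under 0.05 was found for 1, on the higher side and with overlap, beside 8.02% of all genes tested. The groups did not overlap for 2, both lower, beside 5.04% of all genes tested. Oligodendrocyte lineage markers, 9 of 9 with Mbp highest (1 higher, 8 lower), summed to 98815 to 186934, and endothelial and mural markers, 11 of 11 with Rgs5 highest (4 higher, 7 lower), to 7832 to 9591.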
